A study of Mus musculus with 22 samples.

Results

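The 8 genes described here encode liver enzymes that attach a methyl group, an acetyl group or glycine to small molecules. They are Inmt, Nnmt, Tpmt, As3mt, Hnmt, Nat1, Nat2 and Glyat, found by matching Ensembl identifiers to GENCODE mouse symbols. Each symbol matched 1 of the 53392 rows of the deposited table, and all 8 were among the 15928 genes with enough counts to be tested. RNA-seq of whole liver was done in 22 female C57BL/6 mice, 1 library each, in a study of how the microbiome bears on hepatic drug processing genes in pregnancy. The groups were germ-free pregnant mice (n = 5), germ-free non-pregnant mice (n = 6), conventional pregnant mice (n = 5) and conventional non-pregnant mice (n = 6). Pregnant mice were taken at gestation day 15, a day that was assumed from the mating window rather than observed in the germ-free mice. Ages were labelled without a unit, as 91 to 121 for germ-free pregnant, 92 to 105 for germ-free non-pregnant, 70 to 77 for conventional pregnant and 70 to 77 for conventional non-pregnant mice. Age therefore did not overlap between germ-free and conventional mice, and age and germ-free status cannot be told apart.

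Methyltransferases of this kind take the methyl group from S-adenosylmethionine and leave S-adenosylhomocysteine. Inmt methylates tryptamine and related amines, Nnmt methylates nicotinamide, Tpmt methylates thiopurine drugs, As3mt methylates arsenic, and Hnmt methylates histamine. Nat1 and Nat2 are arylamine N-acetyltransferases that use acetyl-CoA, and Glyat is a mitochondrial enzyme that joins glycine to benzoyl-CoA and similar acyl-CoAs, giving hippurate. Benzoate and tryptamine are among the compounds that gut bacteria can produce.

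All positions are on GRCm38 with GENCODE M21 gene models, and all 8 genes are annotated as protein coding. Inmt lies on chromosome 6 from 55170626 to 55175043 on the minus strand, and Nnmt on chromosome 9 from 48591877 to 48605153 on the minus strand. Tpmt lies on chromosome 13 from 47022482 to 47044737 on the minus strand, As3mt on chromosome 19 from 46707458 to 46741099 on the plus strand, and Hnmt on chromosome 2 from 24002910 to 24049394 on the minus strand. Nat1 and Nat2 lie close together on the plus strand of chromosome 8, from 67480921 to 67492104 and from 67494858 to 67502584. Glyat lies on chromosome 19 from 12633308 to 12653911 on the plus strand.

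RefSeq promoter windows, running from 250 bases before to 50 bases after the annotated start, were matched for 5 of the 8 genes, namely Inmt, Tpmt, As3mt, Hnmt and Glyat (GRCm38.p6). The windows of Inmt, Tpmt and As3mt are printed because these are the 3 genes whose RNA passed the test for a difference with pregnancy. Each is written 5′ to 3′ along its gene, at chr6:55174941-55175240 (minus strand), chr13:47043168-47043467 (minus strand) and chr19:46707208-46707507 (plus strand). Capitals mark matches to 5 motifs searched on both strands, which were the STAT motif TTCNNNGAA, the E-box CACGTG, the Ahr core GCGTG, the TATA motif TATAAA and the Hnf4a motif CAAAGTCCA.
Inmt: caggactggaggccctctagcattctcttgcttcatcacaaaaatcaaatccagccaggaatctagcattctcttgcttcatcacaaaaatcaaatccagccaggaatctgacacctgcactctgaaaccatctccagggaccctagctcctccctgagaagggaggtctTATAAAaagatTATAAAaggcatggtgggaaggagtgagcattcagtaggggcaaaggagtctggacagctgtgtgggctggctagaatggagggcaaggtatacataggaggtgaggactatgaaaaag
Tpmt: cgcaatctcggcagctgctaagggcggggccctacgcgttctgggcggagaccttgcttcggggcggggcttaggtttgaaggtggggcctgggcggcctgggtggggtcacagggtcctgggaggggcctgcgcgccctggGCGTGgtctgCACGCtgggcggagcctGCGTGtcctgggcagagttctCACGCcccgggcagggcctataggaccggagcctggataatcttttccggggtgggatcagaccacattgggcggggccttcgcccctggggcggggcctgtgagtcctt
As3mt: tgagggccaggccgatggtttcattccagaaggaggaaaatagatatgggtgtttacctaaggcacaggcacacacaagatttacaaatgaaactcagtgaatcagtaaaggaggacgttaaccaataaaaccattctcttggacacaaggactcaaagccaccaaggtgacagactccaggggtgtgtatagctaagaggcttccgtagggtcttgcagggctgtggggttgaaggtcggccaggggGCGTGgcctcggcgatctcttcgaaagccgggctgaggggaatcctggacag
The Inmt window held TATAAA beginning 80 and 69 bases before the start, a motif found in 13.6% of 32851 RefSeq promoter windows of the same length. The Tpmt window held GCGTG beginning 108 and 81 bases before the start, and its reverse complement beginning 98 and 60 bases before it. In As3mt, GCGTG began 2 bases before the start. GCGTG was found in 32.4% of all windows. The Hnmt and Glyat windows held none of the 5 motifs, of which the other 3 occur in 8.3% (TTCNNNGAA), 7.15% (CACGTG) and 0.475% (CAAAGTCCA) of windows. Base composition differed among the 3 printed windows. GC content was 47.7% with 0 CpG in Inmt, 69.7% with 22 CpG in Tpmt and 52.0% with 9 CpG in As3mt, where the median window had 52.7% GC and 7 CpG.

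The libraries held 18064491 to 30036912 estimated counts. Levels below are CPM, counts scaled to library size after TMM normalization, and p-values are from edgeR's quasi-likelihood test with Benjamini-Hochberg adjustment over all 15928 genes, with 0.05 as the threshold. The labels do not say which mice shared a litter. Hepatocyte markers (Alb, Ttr, Apoa1, Apob, Hnf4a and Tat) were present in all 4 groups, and their shift with pregnancy is given beside Inmt. Marker sums reached at most 0.637 CPM for lung, 0.465 for kidney, 9.25 for adipose tissue and muscle and 135.7 for intestine, whose marker Sis was at 0 in all groups. The library of conventional pregnant replicate 2 stood apart, with a summed Kupffer cell marker level of 992.7 CPM where the next highest library had 462.5 CPM. The same library had the highest neutrophil marker sum (23.0 CPM, next 3.94 CPM) and the highest T and NK cell marker sum (14.1 CPM, next 5.44 CPM). Its pericentral (1221 CPM) and periportal (1463 CPM) hepatocyte marker sums were the lowest of all 22. Its effect on the values of the 8 genes is given beside them. Germ-free pregnant replicate 2 stood apart in other ways, with the highest sums of exocrine pancreas markers (13.5 CPM, next 3.91 CPM) and cholangiocyte markers (137.5 CPM, next 93.0 CPM, where the median of its group was 25.6 CPM). Without it, 2 of the 8 genes still passed the test for pregnancy in germ-free mice, Inmt at -1.31 (edgeR adjusted p = 0.00937) and As3mt at 0.7 (0.00746).

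To compare genes, levels were put on a scale of CPM per kilobase of exon. The length was the union of all annotated exons of a gene, not that of the transcripts expressed. The order of the genes depends on this length. For Inmt the union was 1600 bases, and its longest coding transcript was 1077 bases. On this scale Inmt had the highest level of the 8 genes in all 4 groups. Its mean level was 244.9 CPM per kb in germ-free pregnant, 648.8 in germ-free non-pregnant, 243.4 in conventional pregnant and 655.6 in conventional non-pregnant mice. In germ-free pregnant mice, Nnmt (90.6 CPM per kb), Glyat (36.3), As3mt (16.4), Hnmt (10.5), Nat2 (7.9), Tpmt (4.47) and Nat1 (1.66) followed. Of these neighbours in the order, only Hnmt and Nat2 had overlapping ranges in that group. In germ-free non-pregnant mice the order was Nnmt (122.2), Glyat (39.1), Hnmt (10.0), As3mt (9.92), Nat2 (8.9), Tpmt (6.42) and Nat1 (1.48), with overlapping ranges for Nnmt and Glyat and for each neighbouring pair from Hnmt to Tpmt.

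In conventional pregnant mice the order after Inmt was Nnmt (37.7 CPM per kb), Glyat (33.8), As3mt (15.0), Hnmt (9.67), Nat2 (8.11), Tpmt (4.14) and Nat1 (1.09). Nnmt overlapped Glyat, As3mt overlapped Hnmt, and Hnmt overlapped Nat2. In conventional non-pregnant mice it was Nnmt (68.0), Glyat (38.1), As3mt (10.5), Nat2 (9.34), Hnmt (7.41), Tpmt (6.95) and Nat1 (0.986). There Nnmt overlapped Glyat, and each neighbouring pair from As3mt to Tpmt overlapped. Nat1 was the lowest of the 8 in all 4 groups, and only 19 to 97 counts per library lie behind its values.

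**Figure D1:**
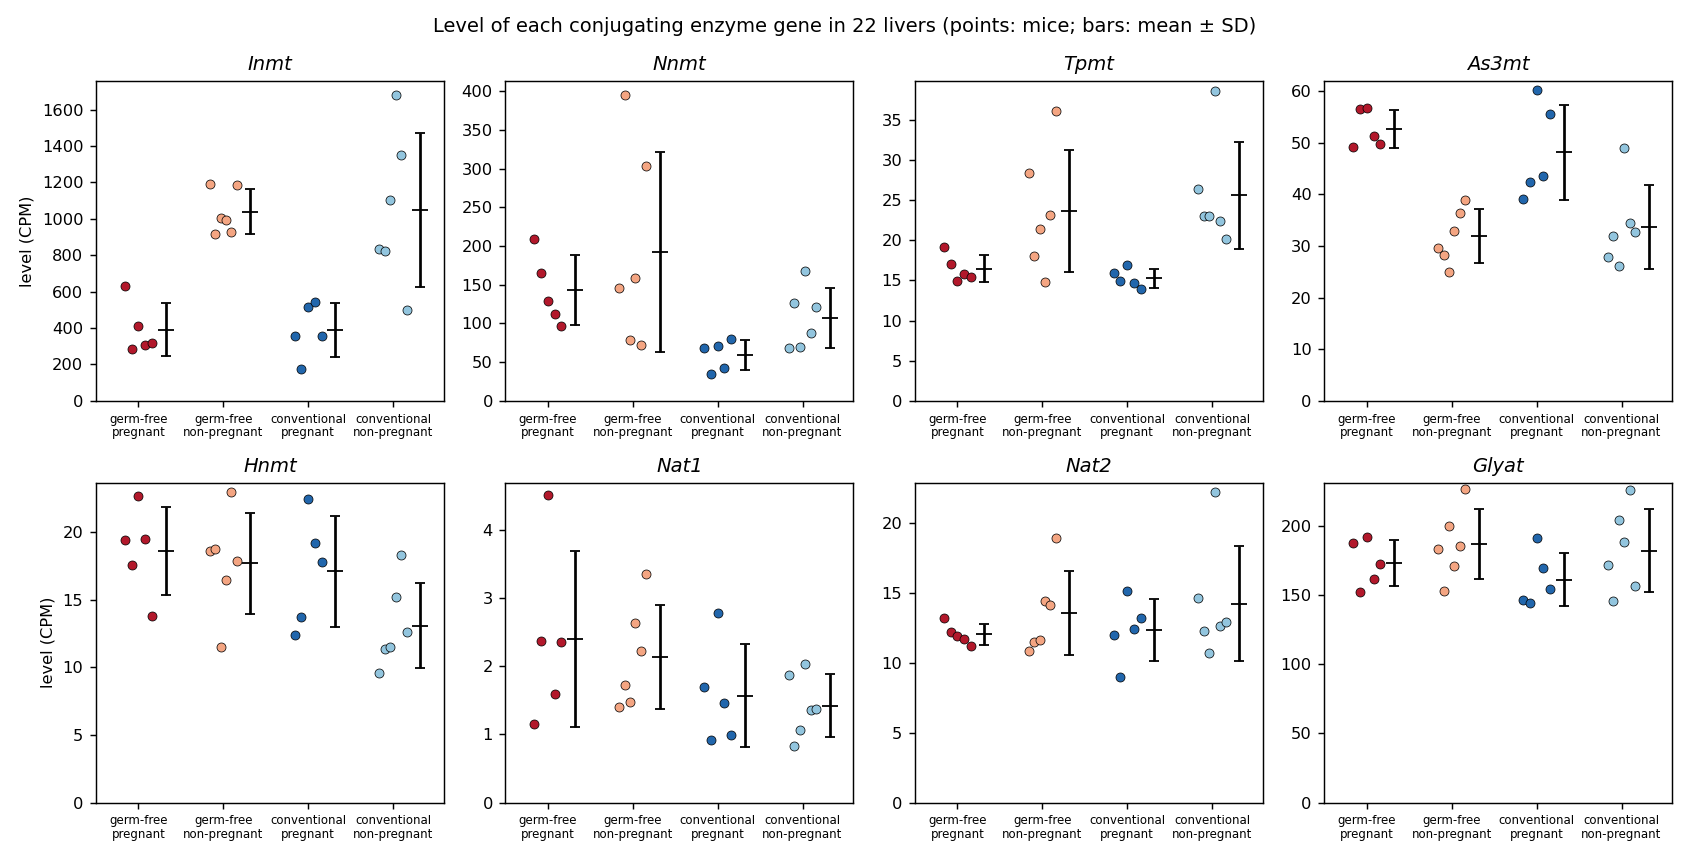
Level of each of the 8 genes in every liver, in CPM on a linear axis, by group (germ-free pregnant, germ-free non-pregnant, conventional pregnant, conventional non-pregnant). Each panel has 1 point per mouse, with bars for the group mean ± SD. Inmt lay lower and As3mt higher in both pregnant groups, Tpmt passed the test as lower in conventional pregnant mice and not in germ-free pregnant mice, and the 4 groups of Glyat lay between 144.6 and 227.2 CPM.

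The first question was how pregnancy moved these genes. In germ-free mice, 2 of the 8 genes passed the test, beside 10.8% of all genes tested. Of the 8, 1 was higher in germ-free pregnant mice (As3mt, beside 7.15% of all genes) and 1 lower (Inmt, beside 3.6%). In conventional mice, 3 of the 8 passed, beside 9.02% of all genes, with 1 higher (As3mt, beside 5.49%) and 2 lower (Inmt and Tpmt, beside 3.52%). An unadjusted p under 0.05 was reached by 3 of the 8 in germ-free mice, beside 24.1% of all genes, and by 4 in conventional mice, beside 22.0%. The median log2 fold change of the 8 genes was -0.14 in germ-free mice, where that of all genes was -0.02, and -0.19 in conventional mice, where that of all genes was 0.04. In these whole-tissue samples, fewer cells of a type and less RNA per cell cannot be told apart.

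Inmt, the indolethylamine N-methyltransferase, fell in pregnancy in both kinds of mice by more than any other of the 8 genes. Germ-free pregnant livers had 633.0, 285.4, 412.7, 307.9 and 320.4 CPM, against 918.4 (lowest), 1001 (median) and 1193 (highest) CPM in the 6 germ-free non-pregnant livers. Each of the germ-free pregnant livers lay below each of the germ-free non-pregnant ones, and 8.47% of all genes tested did not overlap in this comparison. The means were 391.9 ± 143.2 CPM in germ-free pregnant livers and 1038 ± 122.8 CPM in germ-free non-pregnant livers (SD, n = 5 and 6). Pregnancy gave a log2 fold change of -1.41 ± 0.29 (SE; 95% interval -2.01 to -0.8; edgeR adjusted p = 0.00218), a level 2.65-fold lower in germ-free pregnant mice.

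Conventional pregnant livers had 358.2, 173.9, 515.7, 544.9 and 354.4 CPM of Inmt, against 500.3 (lowest), 970.3 (median) and 1681 (highest) CPM in conventional non-pregnant livers. The groups overlapped through conventional non-pregnant replicate 6, the lowest of its group. The means were 389.4 ± 149.0 CPM in conventional pregnant and 1049 ± 421.9 CPM in conventional non-pregnant mice. Pregnancy gave a log2 fold change of -1.43 ± 0.29 (95% interval -2.03 to -0.82; edgeR adjusted p = 0.00245), a level 2.69-fold lower in conventional pregnant mice. Without conventional pregnant replicate 2, which had the lowest Inmt level of all 22 libraries, it was -1.24 with an edgeR adjusted p of 0.00598.

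Hepatocyte markers shifted with pregnancy as well. In germ-free mice 4 of the 6 passed the test as higher and 1 as lower in pregnant livers, and in conventional mice 2 as higher and 1 as lower. Their summed level was 118000 to 180000 CPM in germ-free pregnant, 48250 to 82200 in germ-free non-pregnant, 65250 to 228800 in conventional pregnant and 55530 to 81150 in conventional non-pregnant mice. Alb, the serum albumin gene and the largest part of this sum, averaged 116400 ± 21720 CPM in germ-free pregnant and 53110 ± 9064 CPM in germ-free non-pregnant livers. Conventional pregnant livers averaged 123800 ± 63800 CPM of Alb and conventional non-pregnant livers 52160 ± 8896 CPM. Pericentral hepatocytes, which lie around the central vein, and periportal ones were followed by 6 marker genes each. In germ-free mice 2 of the 6 pericentral and 2 of the 6 periportal markers passed the test as lower in pregnancy, and in conventional mice 4 of 6 and 4 of 6. None passed it as higher in either. The pericentral marker Slc1a2 had a positive log2 fold change in both, 0.84 ± 0.28 in germ-free mice (edgeR adjusted p = 0.0571) and 0.43 ± 0.28 in conventional mice (0.405). The pericentral sums were 4207 to 6283 CPM in germ-free pregnant, 4795 to 9064 in germ-free non-pregnant, 1221 to 5128 in conventional pregnant and 6399 to 7256 in conventional non-pregnant mice. The periportal sums were 2793 to 6013, 4845 to 8345, 1463 to 4385 and 4411 to 7938 CPM in the same order of groups. No pericentral or periportal marker was at 0 in any group. The part of these marker shifts in the results for Inmt, Tpmt and As3mt was not tested. Erythroid markers moved the other way. Of the 6, 5 passed the test as higher in germ-free pregnant than germ-free non-pregnant mice, and 2 as higher in conventional pregnant than conventional non-pregnant mice. Their sums were 1029 to 2148 CPM in germ-free pregnant, 153.7 to 1070 in germ-free non-pregnant, 214.6 to 1395 in conventional pregnant and 266.4 to 495.5 in conventional non-pregnant mice.

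Tpmt, the thiopurine methyltransferase, fell in pregnancy in conventional mice. Conventional pregnant livers had 15.9, 14.9, 16.9, 14.7 and 13.9 CPM, against 20.2 (lowest), 23.0 (median) and 38.6 (highest) CPM in conventional non-pregnant livers. The groups did not overlap, which held for 4.96% of all genes tested in this comparison. On the log2 scale the change was -0.74 ± 0.18 (95% interval -1.13 to -0.36; edgeR adjusted p = 0.0116), a level 1.68-fold lower in conventional pregnant mice. Without conventional non-pregnant replicate 4, which gave the 38.6 CPM, it was -0.59 with an edgeR adjusted p of 0.0351. Without conventional pregnant replicate 2 it was -0.74 (adjusted p = 0.027).

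In germ-free mice, Tpmt had 19.2, 17.1, 14.9, 15.8 and 15.4 CPM in pregnant livers, against 14.8 (lowest), 22.3 (median) and 36.1 (highest) CPM in non-pregnant livers. The log2 fold change was -0.52 ± 0.18 (95% interval -0.9 to -0.14) and did not pass the test (edgeR adjusted p = 0.0716). It passed it without germ-free non-pregnant replicate 2 (adjusted p = 0.0464), without germ-free non-pregnant replicate 4 (0.0234) or without conventional non-pregnant replicate 4 (0.0397), and in DESeq2 (0.0424). The pregnant livers were close together in both kinds of mice. The coefficient of variation of Tpmt was 10.6% in germ-free pregnant, 32.3% in germ-free non-pregnant, 7.64% in conventional pregnant and 26.0% in conventional non-pregnant mice.

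Tpmt values carry an uncertainty of counting. Of its 3757 stretches of 31 bases, 20.3% also occur in transcripts of other genes, mostly the processed pseudogene Gm18807, which had 0 CPM in all 22 libraries. Gm18807 lies on the opposite strand within Tpmt, and whether strand was used in counting is not given in the sources used here. The span of Tpmt also overlaps that of Kdm1b, with 0 bases of shared exon. No stretch of 31 bases of Inmt, Nnmt, As3mt or Hnmt occurs in another gene's transcripts.

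As3mt, the arsenite methyltransferase, rose in pregnancy in both kinds of mice. Germ-free pregnant livers had 49.2, 56.6, 56.7, 51.3 and 49.8 CPM, against 25.0 (lowest), 31.3 (median) and 39.0 (highest) CPM in germ-free non-pregnant livers. These groups did not overlap, as was the case for 8.47% of all genes tested. On the log2 scale the change was 0.73 ± 0.15 (95% interval 0.41 to 1.04; edgeR adjusted p = 0.00232), a level 1.65-fold higher in germ-free pregnant mice.

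Conventional pregnant livers had 39.1, 42.4, 60.2, 43.6 and 55.5 CPM of As3mt, against 26.2 (lowest), 32.4 (median) and 48.9 (highest) CPM in conventional non-pregnant livers. The groups overlapped through conventional non-pregnant replicate 4, the highest of its group. The log2 fold change was 0.51 ± 0.15 (95% interval 0.2 to 0.83; edgeR adjusted p = 0.0343), a level 1.43-fold higher in conventional pregnant mice. This call was close to the threshold. It was lost without conventional non-pregnant replicate 1 (adjusted p = 0.0755), 2 (0.063), 3 (0.0819) or 5 (0.0566) and without conventional pregnant replicate 3 (0.102) or 5 (0.0883). Without conventional non-pregnant replicate 4 the log2 fold change was 0.65, with an edgeR adjusted p of 0.0043. Without conventional pregnant replicate 2 it was 0.56 (adjusted p = 0.0374).

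Nnmt, the nicotinamide N-methyltransferase, had the widest range of the 8 genes over the 22 livers of all groups, 11.2-fold. It had 209.7, 165.5, 129.4, 112.2 and 97.3 CPM in germ-free pregnant livers, against 72.8 (lowest), 152.5 (median) and 395.3 (highest) CPM in germ-free non-pregnant livers. The coefficient of variation was 31.7% in germ-free pregnant and 67.3% in germ-free non-pregnant mice. It was 32.8% in conventional pregnant and 36.3% in conventional non-pregnant mice. Only in germ-free non-pregnant mice was it the highest of the 8 genes. The log2 fold change in germ-free mice was -0.43 ± 0.37 (edgeR adjusted p = 0.518). Conventional pregnant livers had 68.0, 35.3, 71.5, 42.3 and 80.3 CPM, against 68.3 (lowest), 104.7 (median) and 168.2 (highest) CPM in conventional non-pregnant livers. That log2 fold change of -0.85 ± 0.37 (95% interval -1.62 to -0.08) did not pass the test either (edgeR adjusted p = 0.172), and it was -0.71 without conventional pregnant replicate 2 (adjusted p = 0.356).

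Hnmt, the histamine N-methyltransferase, did not pass the test with pregnancy. It averaged 18.6 ± 3.26 CPM in germ-free pregnant and 17.7 ± 3.74 CPM in germ-free non-pregnant livers, a log2 fold change of 0.07 ± 0.19 (edgeR adjusted p = 0.865). It averaged 17.1 ± 4.13 CPM in conventional pregnant and 13.1 ± 3.16 CPM in conventional non-pregnant mice, a log2 fold change of 0.38 ± 0.19 (edgeR adjusted p = 0.231). The groups overlapped in both kinds of mice. Without conventional pregnant replicate 2, the value in conventional mice was 0.45 (adjusted p = 0.201).

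Neither arylamine N-acetyltransferase passed the test with pregnancy. Nat2 averaged 12.0 ± 0.735 CPM in germ-free pregnant, 13.6 ± 3.01 in germ-free non-pregnant, 12.3 ± 2.23 in conventional pregnant and 14.2 ± 4.09 in conventional non-pregnant mice. Its log2 fold change with pregnancy was -0.17 ± 0.17 in germ-free mice (95% interval -0.53 to 0.18) and -0.2 ± 0.17 in conventional mice (-0.56 to 0.15). In conventional mice without pregnant replicate 2, the value for Nat2 was -0.11. Nat1 averaged 2.39 ± 1.29, 2.14 ± 0.759, 1.57 ± 0.75 and 1.42 ± 0.458 CPM in the same order of groups. The intervals of its log2 fold changes were wide, from -0.54 to 0.89 in germ-free mice and from -0.58 to 0.88 in conventional mice, where the value of 0.15 became 0.29 without conventional pregnant replicate 2. The longest coding transcripts of Nat1 and Nat2 were 72.5% identical over 1285 aligned bases, but only 4.46% of the 31-base stretches of Nat1 and 4.23% of those of Nat2 occurred in the other.

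Glyat, the glycine conjugating enzyme, had the narrowest range of the 8 genes over the 22 livers of all groups, 1.57-fold. Within groups, its coefficient of variation was the lowest of the 8 only in conventional non-pregnant mice (16.6%). Glyat averaged 173.5 ± 16.8 CPM in germ-free pregnant and 186.8 ± 25.3 CPM in germ-free non-pregnant livers. It averaged 161.4 ± 19.3 CPM in conventional pregnant and 182.3 ± 30.2 CPM in conventional non-pregnant mice. The log2 fold change was -0.11 ± 0.13 in germ-free mice (95% interval -0.38 to 0.16; edgeR adjusted p = 0.681) and -0.18 ± 0.13 in conventional mice (-0.45 to 0.1; adjusted p = 0.489), or -0.14 without conventional pregnant replicate 2.

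**Figure D2:**
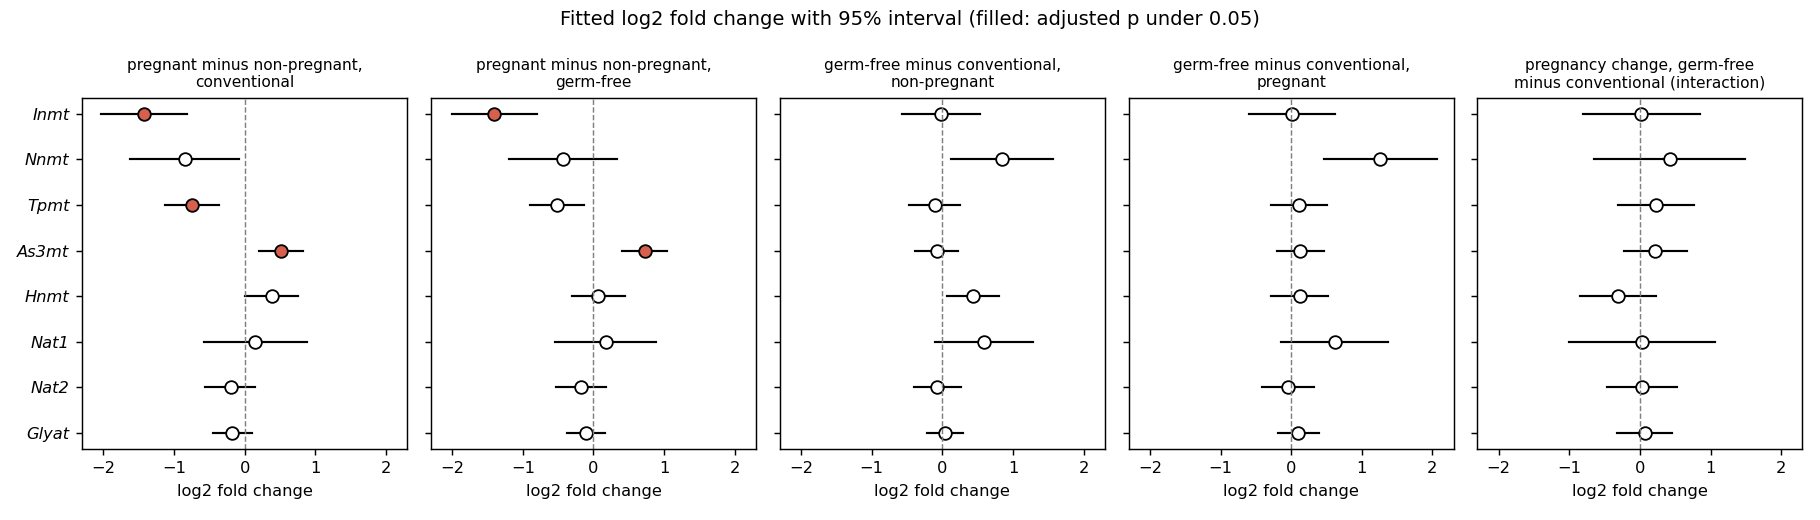
Log2 fold change of each of the 8 genes in the 4 comparisons between groups and, in the last panel, the interaction of pregnancy and germ-free status. Bars are 95% intervals from edgeR, and symbols are filled for an adjusted p under 0.05. Inmt lies at -1.41 and -1.43 for pregnancy in germ-free and conventional mice. No gene has a filled symbol for germ-free against conventional mice or for the interaction.

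The second question was how germ-free mice differed from conventional ones. None of the 8 genes passed edgeR's test between germ-free and conventional non-pregnant mice, beside 0.157% of all genes tested (0.0879% higher and 0.0691% lower), or between germ-free and conventional pregnant mice, beside 0.132% (0.0816% higher and 0.0502% lower). The libraries of the non-pregnant groups overlapped for all 8, while 0.797% of all genes did not overlap there. DESeq2 also called 0 of the 8 in both, beside 117 of 15825 genes in non-pregnant and 108 in pregnant mice. At an unadjusted p under 0.05, there were 2 of the 8 (Nnmt and Hnmt) in non-pregnant mice and 1 (Nnmt) in pregnant mice, beside 6.01% and 10.5% of all genes tested.

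Nnmt had the widest difference between germ-free and conventional mice among the 8. Its mean was 142.8 ± 45.2 CPM in germ-free pregnant and 59.5 ± 19.5 CPM in conventional pregnant mice. The lowest germ-free pregnant liver (97.3 CPM) lay above the highest conventional pregnant liver (80.3 CPM), and 1.1% of all genes tested did not overlap in this comparison. The log2 fold change was 1.26 ± 0.39 (95% interval 0.46 to 2.07), which did not pass the test (unadjusted p = 0.00346, edgeR adjusted p = 0.261). Without conventional pregnant replicate 2, which had the lowest Nnmt level, it was 1.12 (adjusted p = 0.523). In non-pregnant mice Nnmt averaged 192.6 ± 129.5 CPM in germ-free and 107.2 ± 38.9 CPM in conventional livers, with overlapping groups and a log2 fold change of 0.85 ± 0.35 (unadjusted p = 0.0242, adjusted p = 0.654).

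Hnmt had a log2 fold change of 0.43 ± 0.18 between germ-free and conventional non-pregnant mice (unadjusted p = 0.0229, edgeR adjusted p = 0.64) and of 0.12 ± 0.19 between germ-free and conventional pregnant mice. Inmt was close to level, at -0.02 ± 0.27 in non-pregnant mice (95% interval -0.57 to 0.54) and 0.01 ± 0.3 in pregnant mice (-0.6 to 0.62). Glyat had narrow intervals, from -0.22 to 0.29 in non-pregnant and from -0.18 to 0.39 in pregnant mice. The log2 fold changes of Tpmt (-0.11 and 0.11), As3mt (-0.08 and 0.13) and Nat2 (-0.07 and -0.04) in non-pregnant and pregnant mice were all within 1 SE of 0. Those of Nat1 were 0.59 ± 0.34 and 0.62 ± 0.37. Leaving out conventional pregnant replicate 2 put the values in pregnant mice at -0.18 for Inmt, which changed sign, 0.1 for Tpmt, 0.09 for As3mt, 0.05 for Hnmt, 0.47 for Nat1, -0.13 for Nat2 and 0.07 for Glyat.

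The difference between the pregnancy effect in germ-free and that in conventional mice was tested as an interaction. None of the 8 genes passed edgeR's test, beside 0.0% of all genes. An unadjusted p under 0.05 was reached by 0 of the 8, beside 5.67% of all genes. DESeq2 called 0 of the 8, beside 7 of 15825 genes. The interaction was 0.02 ± 0.4 for Inmt (95% interval -0.8 to 0.85), 0.22 ± 0.26 for Tpmt (-0.31 to 0.76) and 0.21 ± 0.22 for As3mt (-0.23 to 0.66). It was 0.42 ± 0.52 for Nnmt (-0.65 to 1.49). Without conventional pregnant replicate 2 the interaction changed sign for Inmt (-0.16), Nat1 (-0.11) and Nat2 (-0.07), and was 0.28 for Nnmt, 0.21 for Tpmt and 0.17 for As3mt, again with 0 of the 8 passing the test.

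Genes around the 8 enzymes were followed in 9 lists, of which 104 genes were tested. With pregnancy, 21 of the 104 (20.2%) passed edgeR's test in germ-free mice, beside 10.8% of all genes, and 13 (12.5%) in conventional mice, beside 9.02%. In the counts of these lists, rose and fell mean passing this test as higher or lower in pregnant mice. The counts of single lists are small, and many moved by over 1.5 times under the alternatives, whose lowest and highest counts are given with each list. Among 8 other small-molecule methyltransferases, 1 rose and 2 fell in germ-free mice and 4 fell in conventional mice, with a median log2 fold change of -0.41 in each, where all genes had -0.02 and 0.04. The alternatives called 3 to 4 in germ-free and 2 to 4 in conventional mice. The count of 2 was reached without conventional pregnant replicate 2 and also in an alternative that kept that library. Mettl7a1 fell in both germ-free and conventional mice, by 0.59 and 0.84 on the log2 scale (edgeR adjusted p = 0.0128 and 0.000903). Gamt, which makes creatine, rose in germ-free mice, with 492.5 ± 108.8 CPM in pregnant and 232.4 ± 51.8 CPM in non-pregnant livers (edgeR adjusted p = 0.00309). In conventional mice its log2 fold change was 0.39 ± 0.23 (adjusted p = 0.345).

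Of 20 genes of the methionine cycle, which supplies the methyl donor, 4 rose and 1 fell in germ-free mice and 1 fell in conventional mice. The alternatives called 1 to 6 in germ-free mice, with 3 without germ-free pregnant replicate 2, and 0 to 3 in conventional mice, with 0 without conventional pregnant replicate 2. Bhmt, which remethylates homocysteine with betaine, averaged 3360 ± 809.2 CPM in germ-free pregnant and 1511 ± 143.7 CPM in germ-free non-pregnant livers (log2 fold change 1.15 ± 0.24, edgeR adjusted p = 0.00185). Shmt2, a mitochondrial serine hydroxymethyltransferase, rose by 0.54 ± 0.14 (adjusted p = 0.0124), and Amd1, which feeds S-adenosylmethionine into polyamine synthesis, fell by 0.6 ± 0.18 (adjusted p = 0.037, or 0.109 without germ-free pregnant replicate 2), both in germ-free mice. Adk, the adenosine kinase, had 308.3 ± 55.5 CPM in conventional pregnant and 446.2 ± 70.1 CPM in conventional non-pregnant mice (edgeR adjusted p = 0.0346, or 0.104 without conventional pregnant replicate 2).

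Of 19 genes of nicotinamide and NAD metabolism, the setting of Nnmt, 5 passed the test as lower in germ-free and 3 in conventional mice with pregnancy. None passed it as higher in either. The alternatives called 3 to 5 in germ-free mice, with 3 without germ-free pregnant replicate 2, and 1 to 4 in conventional mice, with 1 without conventional pregnant replicate 2. Tdo2, which opens the tryptophan ring, averaged 469.9 ± 117.9 CPM in germ-free pregnant and 934.2 ± 308.1 CPM in germ-free non-pregnant livers (log2 fold change -0.99 ± 0.25, edgeR adjusted p = 0.0116). It averaged 340.6 ± 105.2 CPM in conventional pregnant and 927.1 ± 250.9 CPM in conventional non-pregnant mice (-1.44 ± 0.26, adjusted p = 0.000651). Kynu, the kynureninase, fell in germ-free mice by 0.7 ± 0.17 on the log2 scale (adjusted p = 0.00814). Aox3, an aldehyde oxidase, fell in conventional mice by 0.79 ± 0.24 (adjusted p = 0.0401, or 0.113 without conventional pregnant replicate 2).

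Of 9 other small-molecule acetyltransferases, 1 rose in both kinds of mice. It was Crat, the carnitine acetyltransferase, with 45.8 ± 9.12 CPM in germ-free pregnant and 20.7 ± 4.77 CPM in germ-free non-pregnant livers (edgeR adjusted p = 9.26e-05). Conventional pregnant mice had 50.4 ± 6.77 CPM of it and conventional non-pregnant mice 22.0 ± 5.13 CPM (adjusted p = 8.06e-05). The alternatives called 1 of the 9 in germ-free and 1 to 2 in conventional mice. Among 12 genes of acetyl-CoA and coenzyme A supply, 1 fell in germ-free mice. It was Acly, which makes cytosolic acetyl-CoA, at -0.82 ± 0.25 on the log2 scale (edgeR adjusted p = 0.0399, or 0.113 without germ-free pregnant replicate 2). The alternatives called 0 to 2 in germ-free and 0 to 1 in conventional mice. None of the 12 passed edgeR's test in conventional mice. There 2 had an unadjusted p under 0.05, beside 22.0% of all genes, and DESeq2 called 1, beside 1886 of 15825 genes.

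Of 12 genes of glycine conjugation and supply, 3 rose and 1 fell in germ-free mice, and 1 rose and 1 fell in conventional mice. The alternatives called 3 to 5 in germ-free and 1 to 4 in conventional mice. Amt, of the glycine cleavage system, averaged 57.8 ± 10.4 CPM in germ-free pregnant and 28.2 ± 7.07 CPM in germ-free non-pregnant livers (edgeR adjusted p = 0.00456). Gcsh, of the same system, rose in both, by 0.45 ± 0.12 in germ-free mice and 0.42 ± 0.12 in conventional mice on the log2 scale (edgeR adjusted p = 0.013 and 0.0237). Acsm3, a medium-chain acyl-CoA synthetase, fell in both, at -1.0 ± 0.23 in germ-free mice and -0.97 ± 0.23 in conventional mice (edgeR adjusted p = 0.00573 and 0.00956).

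Of 12 arsenic handling genes, 1 rose in germ-free mice. It was Glrx, the glutaredoxin, at 60.3 ± 8.81 CPM in germ-free pregnant and 38.4 ± 9.23 CPM in germ-free non-pregnant livers (edgeR adjusted p = 0.0147). None passed edgeR's test in conventional mice. There 4 of the 12 had an unadjusted p under 0.05, beside 22.0% of all genes, and DESeq2 called 3, beside 1886 of 15825 genes. The alternatives called 1 to 3 in germ-free mice and 0 to 3 in conventional mice. Of 8 genes of thiopurine handling and purine salvage, 1 fell in germ-free and 2 in conventional mice. The alternatives called 0 to 2 in both, with 0 in germ-free mice without germ-free pregnant replicate 2 and 1 in conventional mice without conventional pregnant replicate 2. Xdh, the xanthine dehydrogenase, fell in both, by 0.53 ± 0.15 in germ-free and 0.54 ± 0.15 in conventional mice (edgeR adjusted p = 0.0263 and 0.0283). The call in germ-free mice was lost without germ-free pregnant replicate 2 (adjusted p = 0.0882). Slc29a1, a nucleoside transporter, had 120.1 ± 36.2 CPM in conventional pregnant and 184.0 ± 26.1 CPM in conventional non-pregnant mice (adjusted p = 0.0429), and it passed the test in 10 of the 22 fits that left out 1 library. None of 4 tested histamine genes passed edgeR's test with pregnancy. An unadjusted p under 0.05 was reached by 0 of them in germ-free mice, beside 24.1% of all genes, and by 1 in conventional mice, beside 22.0%. DESeq2 called 0 in either, beside 2129 and 1886 of 15825 genes. The alternatives called 0 to 1 in both kinds of mice. With 1 library left out in turn, some of the other named genes also lost their call in part of the 22 fits. In germ-free mice Shmt2 and Gcsh passed in 21, Xdh in 18, Amd1 in 15 and Acly in 14. In conventional mice Gcsh passed in 18, Adk and Xdh in 17 and Aox3 in 14.

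Between germ-free and conventional mice, none of the 104 genes passed edgeR's test. An unadjusted p under 0.05 was reached by 9 of them (8.65%) in non-pregnant mice, beside 6.01% of all genes, and by 12 (11.5%) in pregnant mice, beside 10.5%. DESeq2 called 1 in non-pregnant and 0 in pregnant mice, beside 117 and 108 of 15825 genes. The interaction gave 0 by edgeR, 6 (5.77%) at an unadjusted p under 0.05, beside 5.67% of all genes. It gave 0 by DESeq2, beside 7 of 15825 genes.

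**Figure D3:**
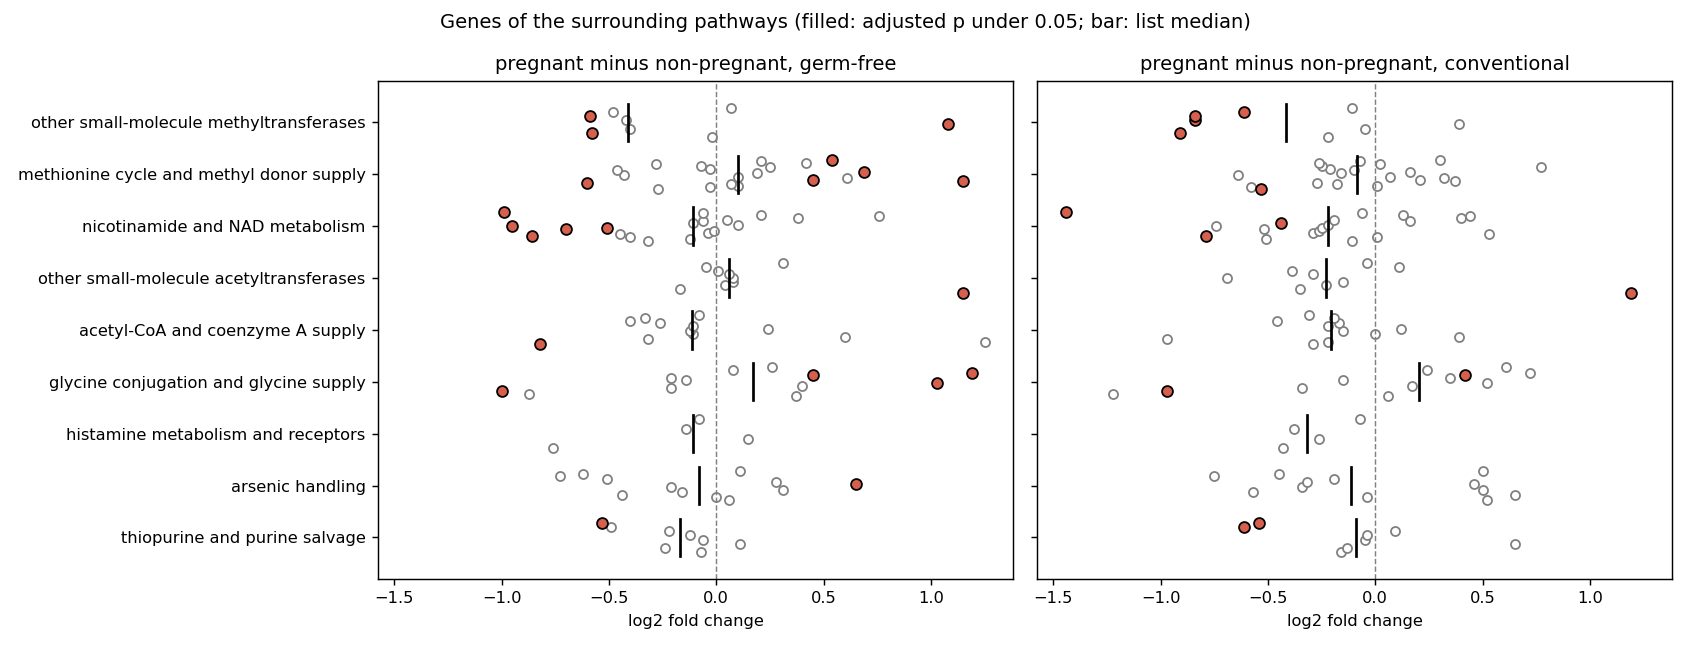
Log2 fold change with pregnancy of the tested genes in each of the 9 lists, in germ-free mice (left) and conventional mice (right), with 1 point per gene, filled where the edgeR adjusted p was under 0.05, and the list's median. The median of the other methyltransferases is -0.41 in both panels.

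For each of the 3 genes that passed a test, the genes with the most similar pattern over the 22 libraries were sought among 9007 candidates with at least 5 CPM, by the root mean square difference of centred log2 CPM. These genes were picked for their pattern over the same libraries, so their changes with pregnancy largely follow from the choice and are given as a description. Lect2, a secreted protein and one of the pericentral markers above, was nearest to Inmt at 0.35, where the median candidate differed by 0.91. The lincRNA 1810058I24Rik (0.35) and Gstt1, a glutathione transferase (0.36), came next. Lect2 had a log2 fold change with pregnancy of -1.15 ± 0.18 in germ-free and -1.6 ± 0.18 in conventional mice. Gstt1 had -1.15 ± 0.22 and -1.44 ± 0.22.

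The genes nearest to Tpmt were Fastk (0.2), Apool (0.22) and Ndufab1 (0.22), where the median candidate differed by 0.51. Fastk had a log2 fold change of -0.48 ± 0.15 in germ-free and -0.49 ± 0.15 in conventional mice. The genes nearest to As3mt were Lta4h, Esd and Itfg1, each at 0.19, where the median was 0.48. Esd, an esterase, had 0.71 ± 0.13 in germ-free and 0.68 ± 0.13 in conventional mice, and Lta4h, the leukotriene A4 hydrolase, had 0.53 ± 0.16 and 0.55 ± 0.16.

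**Figure D4:**
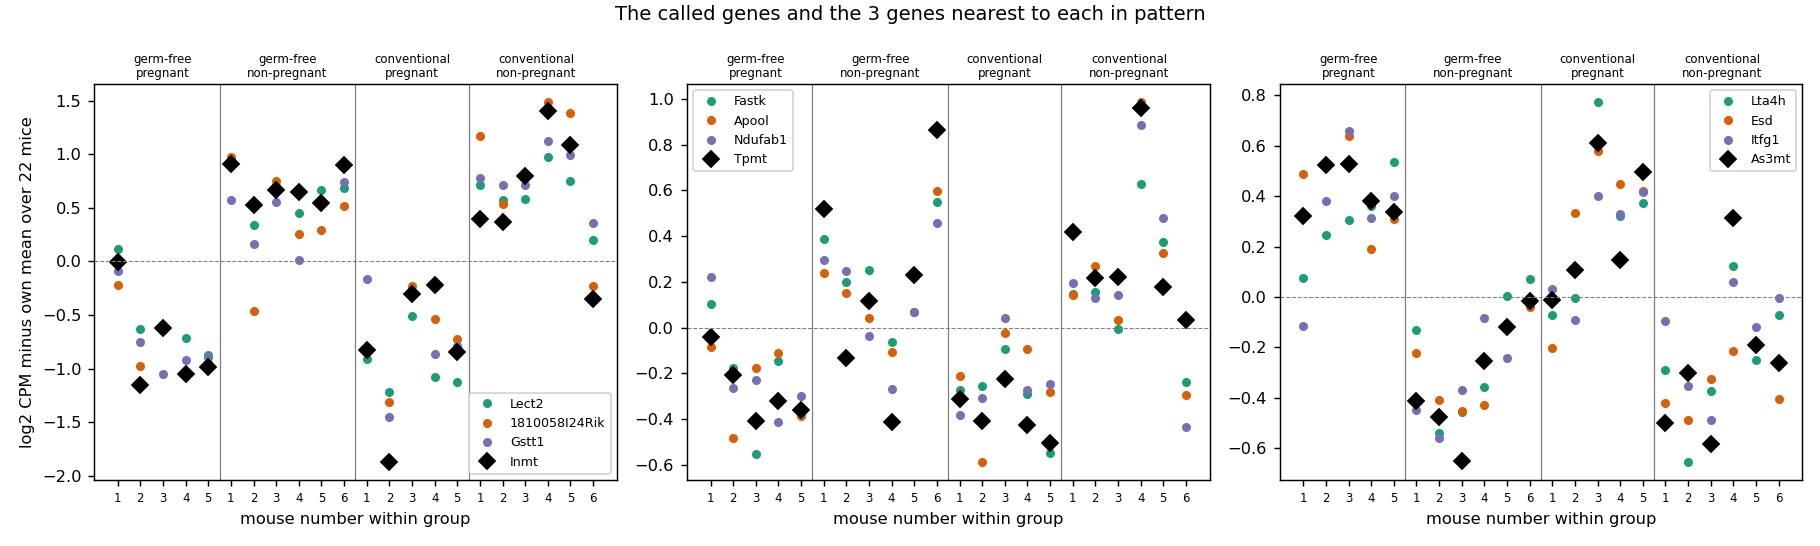
Centred log2 CPM of Inmt, Tpmt and As3mt and of the 3 genes nearest to each, by library and group. The points of Inmt and its nearest genes lie mostly low in the pregnant groups and mostly high in the non-pregnant groups. Exceptions include Inmt in conventional non-pregnant replicate 6 (-0.346) and Lect2 in germ-free pregnant replicate 1 (0.118). The root mean square differences of these genes from Inmt were 0.35 to 0.36.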

How the data were processed

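Livers of 22 mice were snap-frozen, and RNA was purified with RNeasy columns and made into libraries with a NEBNext Ultra RNA kit, per the labels' protocols. The values are estimated counts per gene deposited by the authors as 1 table. The submitters' processing notes name Salmon 0.11.3, edgeR 3.24.3 and GRCm38.p6. Between 14.7 and 26.3% of the values of a library were not whole, and rounding changed 0.00829% of all counts. Of the identifiers, 97.72% matched GENCODE mouse gene names with their version number, and 99.93% matched with or without it.

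Counts were tested in R 4.3.3 with edgeR 4.0.16 (TMM, low-count filter with a minimum count of 10 and total of 15, quasi-likelihood test), in 1 fit of all 22 libraries with 4 groups. Standard errors come from the F statistic. Total counts were 18064491 to 30036912 per library, and Nat1 had the fewest counts of the 8 genes. Replicates were not said to come from separate litters, so p-values measure the spread between these mice. Alternatives were DESeq2 1.42.0, its size factors in edgeR, no filter, only the groups compared, a replicate block, mitochondrial genes left out, and each library left out in turn. Named pathway genes were up to 2 called higher and 2 called lower per list and comparison with the smallest adjusted p, of which 1 is not reported here. The fit was tested on simulated data. The 8 genes and all lists were chosen with earlier results of these data known. Amino acid sequences were not used here.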

Additional observations from a re-analysis of the deposited data

Results flagged for a closer look

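In 3 of 32 sets of values (8 genes in 4 groups), 1 library lay far from the rest of its group, and chance gives about 1 in 20 such sets at the 95% critical value used. The sets share libraries and are not independent. All 3 were in conventional non-pregnant replicate 4. It had 38.6 CPM of Tpmt, 48.9 CPM of As3mt and 22.2 CPM of Nat2, each the highest of its group. Its stellate cell marker sum was the highest of all libraries (313.2 CPM, next 247.3 CPM). Its sums of cholangiocyte (93.0 CPM) and neutrophil markers (3.94 CPM) were the second highest. It also had the highest mitochondrial share of counts in its group (23.59%) and the lowest total (18177507). This library was the highest of its group in 6 of the 8 genes, while it was the highest in 21.6% of all genes tested. Conventional pregnant replicate 3 was also the highest of its group in 6 of the 8 (18.3% of all genes), and germ-free non-pregnant replicate 6 in 5 (17.5%). Without conventional non-pregnant replicate 4, the log2 fold change with pregnancy in conventional mice was -0.59 for Tpmt (edgeR adjusted p = 0.0351) and 0.65 for As3mt (0.0043). In that fit, 3 of the 8 genes still passed the test. No interaction passed the test, so no difference between the pregnancy effects in germ-free and conventional mice is listed.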

How the results depend on the processing

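Pregnancy called 2 of the 8 genes in germ-free mice and 3 in conventional mice, and the count stayed between 2 and 3 in both under all alternatives run. It was 0 under all of them for both germ-free comparisons and the interaction. The fall of Inmt passed the test under every alternative, and with 1 library left out its log2 fold change ran from -1.65 to -1.31 (germ-free mice) and from -1.58 to -1.24 (conventional mice). The fall of Tpmt in conventional mice (-0.8 to -0.59) and the rise of As3mt in germ-free mice did too. As3mt in conventional mice ranged from 0.42 to 0.65 with 1 library left out and lost its call also with no filter (0.47, adjusted p = 0.0914) and with only the groups compared (0.49, 0.121). Some log2 fold changes that did not pass the test changed sign when 1 library was left out. With pregnancy in germ-free mice these were Hnmt (-0.03 to 0.16) and Nat1 (-0.19 to 0.34), and in conventional mice Nat1 (-0.15 to 0.29). Between germ-free and conventional non-pregnant mice they were Inmt (-0.16 to 0.17), Tpmt (-0.27 to 0.04), As3mt (-0.15 to 0.05), Nat2 (-0.18 to 0.1) and Glyat (-0.03 to 0.11), and in pregnant mice Inmt (-0.23 to 0.16) and Nat2 (-0.13 to 0.05). In the interaction they were Inmt (-0.22 to 0.18), Nat1 (-0.34 to 0.33), Nat2 (-0.14 to 0.15) and Glyat (-0.0 to 0.14). Over all genes, germ-free against conventional called 25 in non-pregnant mice (117 with DESeq2, 10 to 44 with 1 library left out) and 21 in pregnant mice (108 with DESeq2, 35 with no filter, 5 with only the groups compared, 5 to 28 with 1 left out). The interaction called 0 (7 with DESeq2, 2 with no filter, 0 to 2 with 1 left out), and pregnancy in conventional mice 1436 (890 with only the groups compared). The cause of these shifts was not tested. With a replicate block, the interaction called 1 gene, Inmt between germ-free and conventional non-pregnant mice was 0.05, and no member call changed. Of 30 pairs of libraries with the same number, 6 had correlated deviations over 0.1, and a library's best match in another group had its own number in 11 of 62 cases. Each other group offered 5 or 6 libraries to match, and these counts were not tested. Pathway list counts with pregnancy moved by over 1.5 times in some alternatives, for example to 1 from 5 for methionine cycle genes in germ-free mice, and to 0 from 2 for thiopurine genes and to 3 from 0 for arsenic handling genes in conventional mice. Nat1 had the fewest counts behind its values, 19 to 97 per library.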

Other observations

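Inmt made up most of the summed CPM per kb of the 8 genes in all 4 groups. Its share was 58.5 ± 5.56% in germ-free pregnant, 77.1 ± 7.46% in germ-free non-pregnant, 67.3 ± 7.79% in conventional pregnant and 80.9 ± 6.55% in conventional non-pregnant mice (SD, n = 5, 6, 5 and 6). The share of Nnmt was 22.0 ± 4.35%, 13.8 ± 8.35%, 11.1 ± 3.31% and 9.3 ± 4.5% in the same order. Shares of 1 total depend on each other and on the exon lengths used, and they were not tested.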
